A study of Mus musculus with 23 samples.

Results

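The comparison is between wild-type (WT) bone marrow-derived mouse macrophages treated with lipopolysaccharide (LPS) and collected at the time labelled T6, and untreated WT macrophages labelled T0. It uses 3 RNA-seq libraries of each group, chosen by their genotype and time labels, so 6 of the 23 libraries in 8 groups. The other groups used are LPS-treated WT cells at T16 (2 libraries) and T32 (3 libraries), and libraries labelled as Stk40 knockout (KO), untreated at T0 and LPS-treated at T6 (3 each). The labels name no allele, promoter or Cre for the knockout. The labels give neither the unit of the time labels nor the age of the animals, and they do not say whether the libraries of a group came from separate mice or cultures. The p-values therefore measure the spread between these libraries, which may be technical. Only the T0 groups were untreated, so LPS and time in culture cannot be told apart for any gene here. Cells were grown from bone marrow in culture, RNA was selected for poly(A) tails, and reads were counted per gene without strand information.

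LPS, a component of the outer membrane of Gram-negative bacteria, is handed by CD14 to the receptor TLR4 with its partner MD-2, which is encoded by Ly96. From the cell surface TLR4 signals through the adaptor MyD88 to NF-kB and MAP kinases, and from endosomes through the adaptor TRIF to IRF3. NF-kB drives inflammatory cytokines and its own inhibitors, whereas IRF3 drives interferon beta, which acts back on the cell through its receptor and STAT proteins to raise interferon-stimulated genes. Macrophages exposed to LPS are also known to switch their metabolism towards glycolysis, nitric oxide and itaconate.

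Of 15782 genes with enough reads to test, 4302 were higher at T6 than at T0 (27.3%) and 5030 were lower (31.9%), by edgeR's quasi-likelihood test at an adjusted p under 0.05. These counts rest on TMM scaling, which assumes that most genes keep their level. Scaled by library totals alone, 2212 genes were higher and 9240 lower, and the median log2 fold change of all genes moved from -0.14 to -0.94. Fold changes below are on the TMM scale and on log2, with n = 3 libraries a group and values by library in the order of replicates 1 to 3. The SE beside them was derived from the F statistic of the fit to all 23 libraries. It is not the spread between the 3 libraries of a group. Genes called higher by TMM but lower by totals numbered 260. Against a threshold of 2-fold, 2087 genes rose (13.2%) and 1910 fell (12.1%), and by library totals all 1910 fell and 1186 of the 2087 rose past the same threshold. The tails of the distribution were unequal: 769 called genes had a log2 fold change of at least 3 and 407 of at most -3, and beyond 7 the counts were 70 and 7.

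Levels are given as TMM-scaled CPM, read counts scaled to a common library size. The genes that rose over 2-fold took 12.8% to 13.9% of all counts in the T0 libraries and 47.5% to 49.3% in the T6 libraries. Genes that fell over 2-fold took 8.48% to 8.89% of counts at T0 and 1.13% to 1.32% at T6. The median level of the rising genes went from 9.63 to 65.2 CPM, and 625 of them had been under 1 CPM at T0. The median of the falling genes went from 9.3 to 1.95 CPM, and 722 of them ended under 1 CPM. Of all genes tested, 63.9% had CPM values that did not overlap between the groups, and among genes past 2-fold this held for 2064 of those that rose and 1907 of those that fell. Among 12913 protein-coding genes 27.8% rose and 34.4% fell, whereas 1258 processed pseudogenes gave 30% and 7.39%. Reads of a pseudogene and its parent gene can be hard to tell apart, so the pseudogene values are uncertain.

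**Figure D1:**
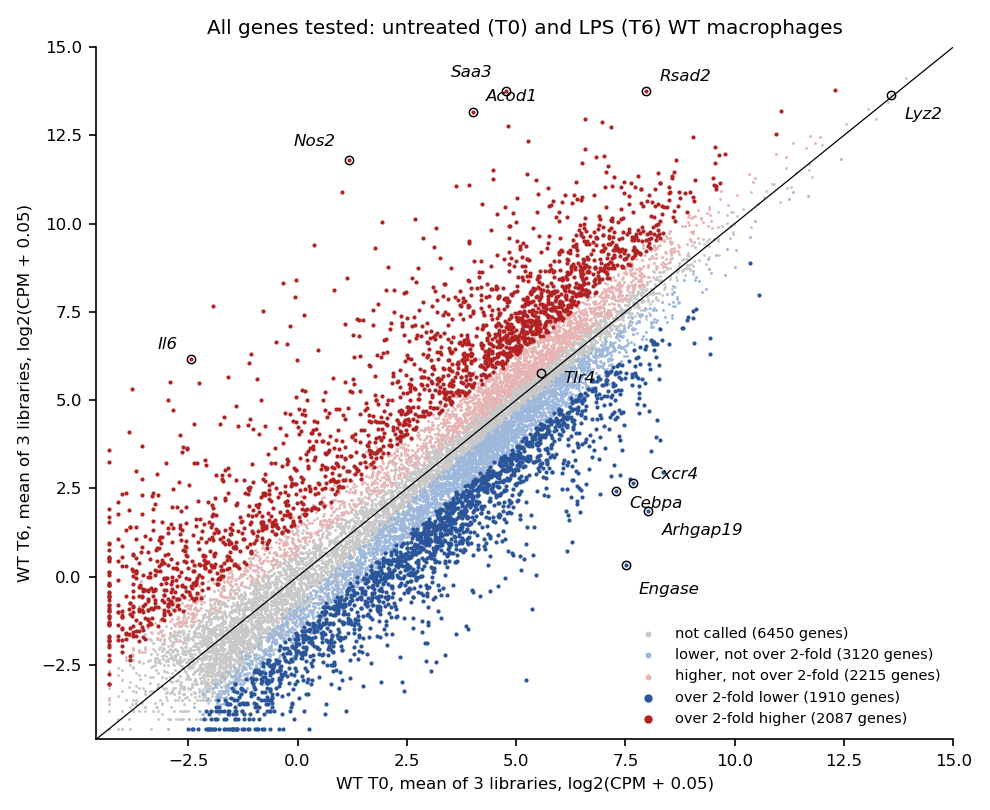
Each point is 1 of the 15782 genes tested, with its mean over the 3 T0 libraries on the x axis and over the 3 T6 libraries on the y axis, both as log2(CPM + 0.05), and the line marks equal levels. Colours mark the 2087 genes over 2-fold higher, the 1910 over 2-fold lower, the 2215 and 3120 called higher and lower with a smaller change, and the 6450 not called; Tlr4 and Lyz2 lie near the line and Nos2 and Engase far from it.

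The 6 libraries held 19455080 to 39778253 counts, and TMM factors were 1.35 to 1.45 at T0 and 0.75 to 0.83 at T6. Replicate 2 of T6 stood apart from replicates 1 and 3: the chi-square per degree of freedom between T6 replicates was 121 and 131 for pairs with replicate 2 and 41.0 for the other pair, against 19.1 to 30.1 at T0. Mitochondrially encoded genes took 1.104% of its counts, 0.46% and 0.47% in the other T6 libraries and 1.38% to 1.68% at T0. Without it the counts were 4313 higher and 5120 lower. None of the 14 mitochondrially encoded genes tested was called, with a median log2 fold change of -0.31. Replicate 2 of T0 and replicate 1 of T6 carried counts on Y-linked genes and the other 4 carried Xist, the transcript that silences an X chromosome, so cells of both sexes were present in both groups. All 10 defining macrophage markers had enough reads to test, summing to 15622 to 20590 CPM at T0 and 20828 to 33301 CPM at T6. Most of the sum at T0 was Lyz2, whose values are given below, so the sum says little of the other markers.

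The 15 largest rises were taken among genes with a mean of at least 5 CPM and no overlap between the groups. Nos2, the inducible nitric oxide synthase, stood at 6.34, 0.179 and 0.119 CPM in the 3 T0 libraries and at 3840, 2862 and 3989 CPM in the 3 T6 libraries (log2 fold change 10.69 ± 1.06 SE, adjusted p 3.55e-08, edgeR). The T0 value of replicate 1 was far above the other 2, and still every T6 value exceeded every T0 value. Il6, the acute inflammatory cytokine interleukin 6, was at 0.343, 0.0358 and 0.0238 CPM and then at 59.7, 63 and 90.5 CPM, a log2 change of 9.13 ± 0.51. Ptgs2, the inducible cyclooxygenase of prostaglandin synthesis, went from 1.68, 1.04 and 1 CPM to 687, 481 and 845 CPM (9.09 ± 0.55). Acod1, which makes itaconate from cis-aconitate, went from 25.1, 14.3 and 8.62 to 9611, 8457 and 9441 CPM (9.16 ± 0.39).

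Others of the 15 largest rises encode secreted or surface proteins. Saa3, a serum amyloid A protein with close relatives in the genome, was at 31.6, 34.9 and 15.3 CPM at T0 and 11954, 22933 and 6342 CPM at T6, with the highest T6 value in replicate 2. Edn1, the precursor of the vasoconstrictor endothelin 1, was at 0.617, 0.645 and 0.333 CPM and then at 242, 138 and 176 CPM (8.48 ± 0.53). Csf3, the granulocyte growth factor G-CSF, was at 0.0343, 0.0717 and 0 CPM, so 1 T0 library held no read of it, and then at 12, 19.2 and 7.87 CPM. The group also held Il2ra, a chain of the interleukin 2 receptor (8.56 ± 0.696), Itgb8, an integrin chain that takes part in activating TGF-beta (8.13 ± 0.81), and Tarm1, an activating receptor of myeloid cells (8.78 ± 0.38). Shisa3, Lipg (endothelial lipase), Steap4 (a metalloreductase), Cxcl9 and Ifi205 completed it, at log2 fold changes of 10.68, 9.92, 9.47, 8.58 and 8.15.

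The 15 largest falls were taken by the same rule, which a gene that falls strongly can meet only through its T0 level. Engase, a cytosolic enzyme that trims N-glycans, was at 224, 164 and 158 CPM at T0 and 1.03, 1.59 and 0.971 CPM at T6 (log2 fold change -7.28 ± 0.32, adjusted p 5.47e-13, edgeR). Sesn1, a p53 target that restrains mTORC1, was at 336, 380.3 and 277 CPM and then at 6.6, 11.6 and 4.91 CPM (-5.44 ± 0.29). Arhgap19, a GTPase-activating protein, went from 297, 264 and 221 to 3.77, 4.06 and 2.96 CPM (-6.18 ± 0.19). For each of these genes the 3 T6 values lay far under the lowest T0 value. Cxcr4, the receptor for CXCL12, went from 199, 169 and 243 to 5.27, 5.71 and 7.77 CPM (-5.03 ± 0.37). Bmf, a pro-apoptotic BH3-only protein, fell by 4.97 and Lpin1, a phosphatidate phosphatase, by 4.89 on the log2 scale. Slco2b1, an organic anion transporter, fell by 4.901, and Abcd2, a peroxisomal fatty acid transporter, by 5.41. The other 7 of the 15, Fam214a, Nat8l, Zfp395, Kifc2, Susd3, Gpr155 and Bmyc, fell by 4.86 to 6.38.

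**Figure D2:**
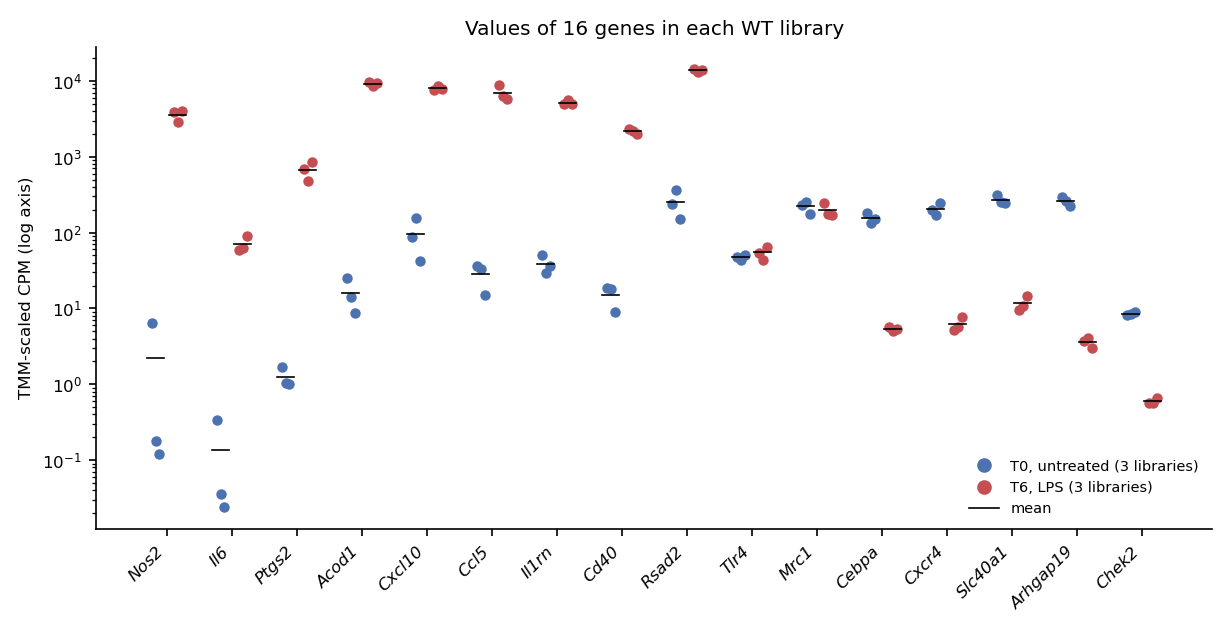
TMM-scaled CPM of 16 genes on a log axis, with a point for each of the 3 untreated T0 and 3 LPS-treated T6 libraries and a line for each group's mean. The values of Tlr4 and Mrc1 overlap between the groups and those of the other 14 genes do not.

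Ranked by the gain in mean TMM-scaled CPM, which is not a share of the library, the genes were partly different. Rsad2, the antiviral enzyme viperin, rose from 240, 367 and 150.3 to 14389, 12992 and 13847 CPM, and Cmpk2, its neighbour on chromosome 12 and a nucleotide kinase, from 104, 189.8 and 81.3 to 7009, 7172 and 8589 CPM. Fth1, the ferritin heavy chain, was abundant before treatment at 5787, 3980 and 5208 CPM and reached 17455, 9860 and 14995 CPM (1.498 ± 0.25). Actb, cytoplasmic actin and a common reference gene, rose from 1972, 2636 and 1766 to 9415, 11525 and 7291 CPM (2.15 ± 0.23). Saa3, Acod1, Cxcl10, Ccl5, Ifit2 and Il1rn were the others of the 10. Among the 10 largest losses of CPM, Txnip, an inhibitor of thioredoxin and glucose uptake, went from 1659, 1367 and 1454 to 248, 253 and 253 CPM (-2.57 ± 0.14), with no overlap. Stab1, a scavenger receptor, went from 1615, 1237 and 1082 to 558, 485 and 370.4 CPM (-1.48 ± 0.21), and Slc43a2, an amino acid transporter, from 736, 751 and 571 to 74, 96.1 and 68.3 CPM (-3.11 ± 0.17). The glutathione peroxidase Gpx1 fell by 1.25 and the nuclear RNA Neat1 by 0.88 on the log2 scale. Lgals3, Csf1r and Laptm5 changed by -0.61, -0.55 and -0.43, the last 2 with overlapping values, and Ctsd and mt-Cytb were not called. The call was lost for Lgals3 without T0 replicate 1 (-0.57), T0 replicate 3 (-0.49) or T6 replicate 1 (-0.45), for Csf1r without T0 replicate 1 (-0.43), T0 replicate 2 (-0.49), T6 replicate 2 (-0.41) or T6 replicate 3 (-0.54), and for Laptm5 without T0 replicate 1 (-0.33), T0 replicate 2 (-0.35), T6 replicate 1 (-0.48) or T6 replicate 3 (-0.28).

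Promoter sequence is shown for example genes of 3 of the groups described below: interferon-stimulated genes, NF-kB targets and DNA replication genes. Each example holds the motif marked in it, which many members of these groups do not, as the shares below show. RefSeq start sites on GRCm38.p6 gave windows of 300 bases, 250 before and 50 after the start, for 9623 of the 15782 genes tested. The lines give the 250 bases before the start, 5′ to 3′ along the gene, in lower case. Capitals mark matches, on either strand, to the interferon-stimulated response element TTTCNNTTTC (ISRE) in Cxcl10 (first match), Rsad2 and Ifi205, to the NF-kB motif GGGNNNTTCC in Cxcl10 (other matches), Nfkbia, Tnfaip3 and Il6, and to the E2F motif TTTCCCGC or TTTGGCGC in Mcm7. The windows lie at chr5:92348890-92349139, chr12:26456453-26456702, chr1:174031756-174032005, chr12:55492648-55492897, chr10:19015411-19015660 and chr5:138171884-138172133 on the minus strand and at chr5:30012864-30013113 on the plus strand.
Cxcl10: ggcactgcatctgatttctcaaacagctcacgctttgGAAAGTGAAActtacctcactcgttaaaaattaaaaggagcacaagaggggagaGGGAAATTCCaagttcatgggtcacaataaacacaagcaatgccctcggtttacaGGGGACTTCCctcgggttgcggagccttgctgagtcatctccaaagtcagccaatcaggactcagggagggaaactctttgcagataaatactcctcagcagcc
Rsad2: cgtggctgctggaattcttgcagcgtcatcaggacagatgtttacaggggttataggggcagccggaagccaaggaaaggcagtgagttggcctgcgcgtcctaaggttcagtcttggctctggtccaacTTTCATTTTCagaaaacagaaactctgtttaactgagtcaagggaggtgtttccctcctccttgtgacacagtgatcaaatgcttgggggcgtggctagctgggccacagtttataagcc
Ifi205: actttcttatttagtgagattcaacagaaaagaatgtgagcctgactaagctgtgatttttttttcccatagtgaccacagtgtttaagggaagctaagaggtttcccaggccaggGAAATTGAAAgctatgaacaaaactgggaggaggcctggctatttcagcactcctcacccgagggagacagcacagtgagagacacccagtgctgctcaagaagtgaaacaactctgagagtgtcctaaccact
Nfkbia: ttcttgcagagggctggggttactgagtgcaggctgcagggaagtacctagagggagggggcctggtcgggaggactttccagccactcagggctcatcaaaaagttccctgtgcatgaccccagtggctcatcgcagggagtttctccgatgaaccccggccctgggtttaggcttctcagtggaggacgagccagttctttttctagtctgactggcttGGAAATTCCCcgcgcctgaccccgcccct
Tnfaip3: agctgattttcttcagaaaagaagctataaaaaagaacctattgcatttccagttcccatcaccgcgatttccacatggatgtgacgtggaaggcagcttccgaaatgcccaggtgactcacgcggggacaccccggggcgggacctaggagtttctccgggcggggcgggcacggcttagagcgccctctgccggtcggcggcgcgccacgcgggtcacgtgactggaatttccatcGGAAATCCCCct
Il6: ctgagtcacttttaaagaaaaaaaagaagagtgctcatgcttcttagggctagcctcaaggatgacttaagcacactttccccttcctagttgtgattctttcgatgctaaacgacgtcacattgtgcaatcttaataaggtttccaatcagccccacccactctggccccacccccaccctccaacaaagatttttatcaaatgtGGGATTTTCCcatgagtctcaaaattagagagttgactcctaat
Mcm7: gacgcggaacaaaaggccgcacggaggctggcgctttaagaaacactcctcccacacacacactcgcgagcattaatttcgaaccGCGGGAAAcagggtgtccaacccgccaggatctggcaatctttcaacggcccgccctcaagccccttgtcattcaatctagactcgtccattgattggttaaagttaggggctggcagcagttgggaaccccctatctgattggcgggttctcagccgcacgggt

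In Cxcl10 the ISRE began at -213 and the NF-kB motifs at -159 and -104, where 0 is the start base. In Il6 the NF-kB motif began at -44, in Nfkbia at -29 and in Tnfaip3 at -12. The ISRE of Rsad2 began at -120 and that of Ifi205 at -134, and the E2F motif of Mcm7 at -165. AP-1 matches, left in lower case, began at -74 in Cxcl10, -87 in Rsad2, -136 in Tnfaip3 and -249 in Il6, and after the start Ifi205 held a further ISRE at 23 and Tnfaip3 a further NF-kB motif at 33. An ISRE lay in 3.43% of the 32817 windows of the whole table, in 3.36% of the 9623 of genes tested, in 8.99% of the 1224 windows of genes over 2-fold higher, in 2.07% of the 1256 of genes over 2-fold lower and in 2.81% of the 3598 of genes not called. For the NF-kB motif these shares were 5.56%, 6.48%, 9.23%, 5.81% and 5.95%. For the AP-1 motif TGANTCA they were 7.81%, 5.13%, 8.99%, 4.46% and 5.03%, for the cAMP response element TGACGTCA 1.79%, 3.28%, 2.61%, 2.79% and 3.14%, and for E2F 1.56%, 3.12%, 2.12%, 3.82% and 3.06%. Among listed genes with a window, 21 of 38 interferon-stimulated genes held an ISRE (55.3%), 6 of 15 NF-kB subunits and regulators held an NF-kB motif (40%), as did 5 of 15 chemokines (33.3%), and 10 of 27 DNA replication genes held an E2F motif (37%). An NF-kB motif lay in 4 of 27 interleukins, TNF family ligands and growth factors (14.8%), and an E2F motif in 0 of 24 mitosis genes. AP-1 matched in 10 of 38 interferon-stimulated genes (26.3%). A match is a run of letters, not evidence of binding. The median log2 fold change was 0.44 with an ISRE and -0.22 without.

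**Figure D3:**
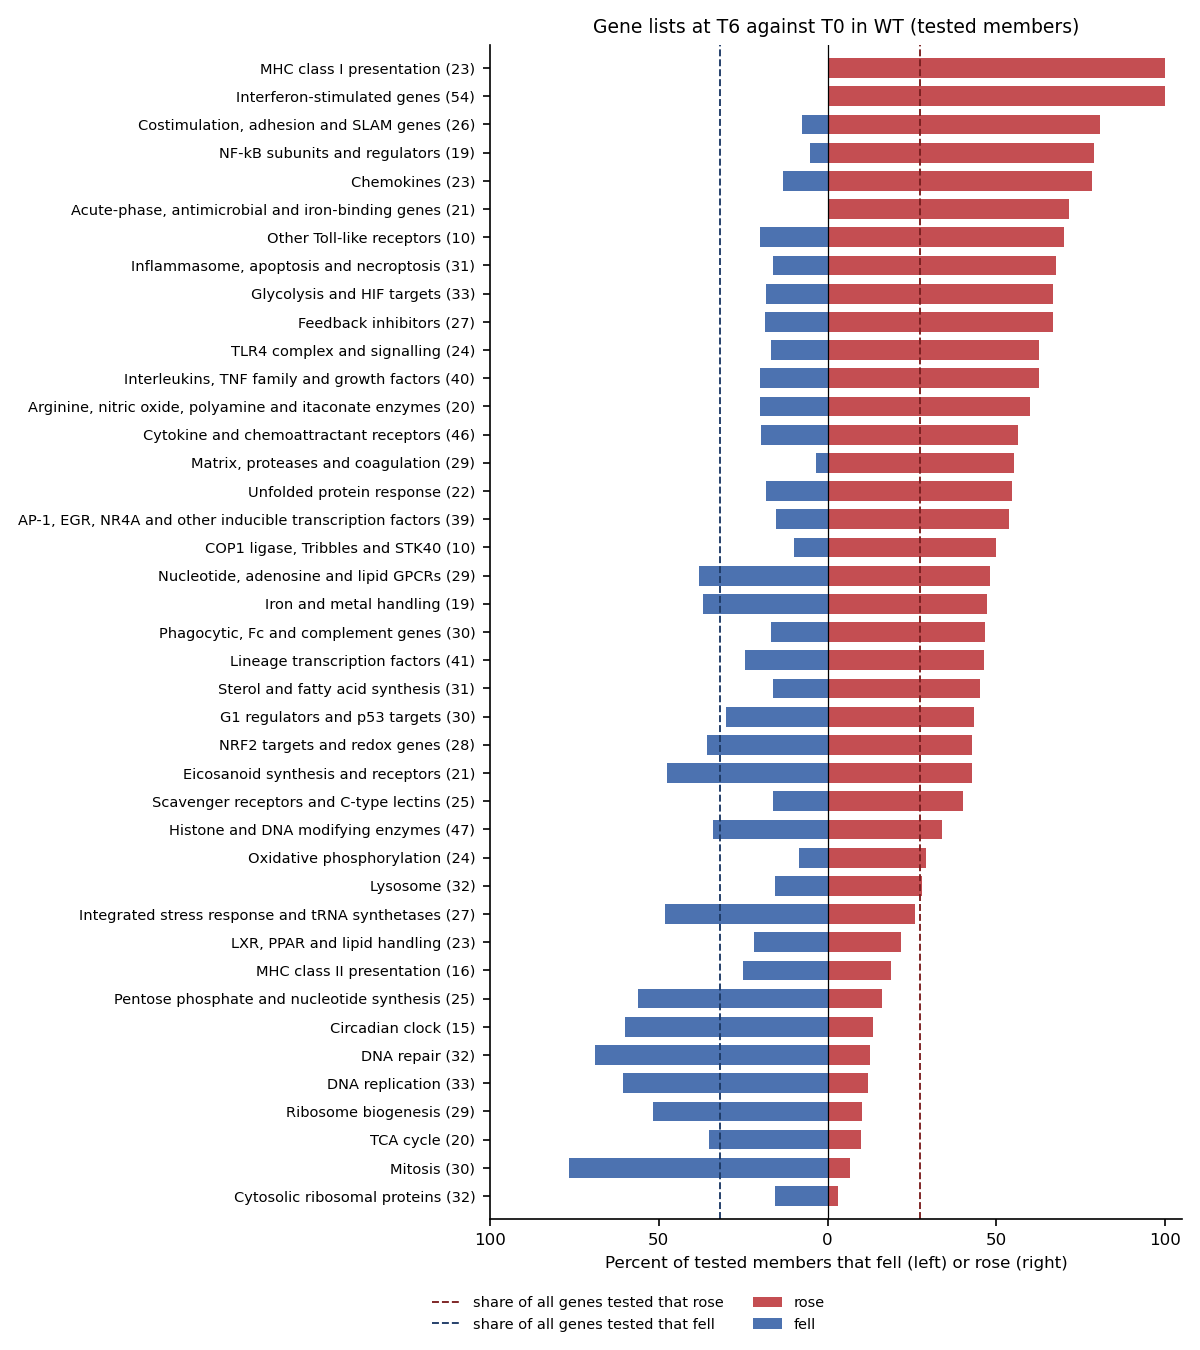
Each bar gives the percent of a list's tested members (their number in brackets) that rose, to the right, or fell, to the left, at T6 against T0 in WT; dashed lines mark the shares of all genes tested, 27.3% higher and 31.9% lower. All members of the MHC class I and interferon lists rose, and mitosis and DNA repair genes have the longest bars to the left.

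The receptor for LPS was not called, while several genes around it rose. Tlr4 was at 48, 43.7 and 50.6 CPM at T0 and 54.5, 44.1 and 65.5 CPM at T6, overlapping values with an adjusted p of 0.478 (edgeR). By library totals Tlr4 was called lower (-0.596). Its partner Ly96 rose from 24.2, 16.1 and 23.1 to 51.9, 57.5 and 35.6 CPM (1.195 ± 0.21), a call lost by library totals (0.385). The LPS-presenting coreceptor Cd14 rose from 356, 353 and 236 to 2536, 2245 and 1977 CPM (2.84 ± 0.17). Myd88, the adaptor, rose from 131, 143 and 106 to 863, 890.1 and 695 CPM (2.69 ± 0.16). Irak3, an inactive kinase that damps the pathway, rose from 33, 29.1 and 21.8 to 245, 225 and 187 CPM (2.97 ± 0.17). Over all genes tested 27.3% rose and 31.9% fell at T6 against T0, and the counts of each list below stand beside these shares. Of 24 tested genes of the TLR4 complex and pathway 15 rose and 4 fell, with a median log2 fold change of 0.91 against -0.14 over all genes. Those that fell were the kinase Irak4 (-0.76 ± 0.12), the TAK1-binding protein Tab1 (-1.56 ± 0.204), Irak1 and Irf3, and 2 were called lower without T0 replicate 1 or without T6 replicate 3. Among the 10 tested receptors of the family other than TLR4, 7 rose and 2 fell. Tlr3, which senses double-stranded RNA, rose from 13.6, 13.5 and 12.3 to 289, 194 and 327 CPM (4.36 ± 0.28), and the lipopeptide receptors Tlr1 and Tlr2 by 2.35 and 1.74. Tlr13, a sensor of bacterial ribosomal RNA, fell from 139, 151 and 144 to 87.8, 71.5 and 86.8 CPM (-0.82 ± 0.21), and Tlr5, the flagellin receptor, also fell.

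Subunits of NF-kB and its inhibitors rose together: 15 of 19 tested genes rose and 1 fell, with a median of 1.98. Rela, the main activating subunit, rose from 177, 181 and 166 to 347, 404 and 333 CPM (1.05 ± 0.14), a call lost by library totals (0.248). Nfkb2, the p100 precursor, rose from 136, 117 and 102 to 1054, 1052 and 872 CPM (3.07 ± 0.16). The inhibitors followed. Nfkbia (IkB alpha), whose promoter is shown above, went from 192, 189.8 and 147 to 1674, 2543 and 1396 CPM (3.41 ± 0.26), Nfkbie by 3.62 ± 0.18, and Nfkbiz, a nuclear cofactor needed for a subset of targets, by 3.45 ± 0.24. Traf1, an adaptor of TNF receptors, rose most, from 15.4, 11.9 and 17.7 to 707, 789 and 689 CPM. The member that fell was Map3k14, the NIK kinase of the non-canonical pathway (41.1, 34.6 and 32.2 to 15.8, 13.8 and 15.5 CPM).

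Among 27 tested negative regulators of the response 18 rose and 5 fell, with a median of 1.63. Socs3, which blocks signalling of the IL-6 receptor family, was at 14.2, 13.9 and 8.62 CPM and then at 2385, 2035 and 1945 CPM (7.44 ± 0.28, adjusted p 1.25e-13, edgeR). Il1rn, the IL-1 receptor antagonist, went from 49.9, 29.4 and 36.4 to 4967, 5610 and 4951 CPM (7.07 ± 0.36). Tnfaip3 (A20), a ubiquitin-editing inhibitor of NF-kB, went from 72.7, 68.5 and 66.8 to 1749, 1929 and 1712 CPM. Smaller rises were those of Dusp1, a MAP kinase phosphatase (1.87 ± 0.198), and Zfp36 (TTP), which speeds decay of cytokine mRNAs (2.12 ± 0.18). Others went the other way. Zfp36l1, which also binds AU-rich mRNAs, fell from 93.5, 84.4 and 77.1 to 15.4, 9.14 and 14.8 CPM (-2.69 ± 0.31), and Sigirr, an inhibitory IL-1 receptor relative, fell by 3.27 at a level of 3.08, 4.12 and 3.6 CPM at T0.

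Of 40 tested interleukins, TNF family ligands and growth factors 25 rose, 23 of them over 2-fold, and 8 fell. The median was 3.28. Il1a and Il1b, the neighbouring genes for interleukin 1 alpha and beta at chr2:129299610-129371139, rose by 7.47 to 8.07 on the log2 scale. Il10, an anti-inflammatory cytokine, rose from 17.5, 18.2 and 9.45 to 176, 292 and 145 CPM (3.77 ± 0.46), and Il12b, the p40 chain of IL-12 and IL-23, from 0.171, 0.0717 and 0.0952 to 10.5, 4.76 and 22.9 CPM, its T6 values spread over several fold. Ifnb1, interferon beta, was low in both groups but did not overlap, at 0.24, 0.358 and 0.0952 CPM and 2.6, 2.29 and 2.2 CPM (3.42 ± 0.51). Among the 8 that fell, Tnfsf12 (TWEAK) went from 94.2, 101 and 92.3 to 18.1, 28.2 and 20.9 CPM (-2.099 ± 0.23) and Il16, a CD4 ligand, from 26.2, 28.8 and 19.1 to 7.97, 3.3 and 3.37 CPM (-2.31 ± 0.298). The growth factor Igf1 was at 214, 238 and 199 CPM and 186, 169 and 175 CPM and was not called (adjusted p 0.0582, edgeR).

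Chemokines, which draw leukocytes to a site, had the highest median of the lists, 4.86. Of 23 tested 18 rose, 17 over 2-fold, and 3 fell, and Ccl11, Ccl17 and Cxcl13 had too few reads to test. Their genes lie in clusters. On chromosome 5, all 3 ligands of CXCR3 at chr5:92321347-92365485, Cxcl9, Cxcl10 and Cxcl11, rose by 6.40 to 9.99, and all 4 of the neutrophil-attracting group at chr5:90759360-90905938 (Cxcl1, Cxcl2, Cxcl3 and Cxcl5) rose by 1.08 to 6.48. On chromosome 11, 4 of 4 tested CC chemokine genes at chr11:82035571-82116799 rose, as did 4 of 5 at chr11:83525778-83664683. Cxcl10 was at 86.5, 155 and 42.3 CPM in untreated libraries and at 7525, 8613 and 7783 CPM after LPS (6.398 ± 0.56). Ccl5 (RANTES) went from 36.4, 32.9 and 14.9 to 8702, 6350 and 5817 CPM (7.96 ± 0.44) and Ccl2, which recruits monocytes, from 7.91, 16.6 and 9.64 to 453, 308 and 523 CPM (5.23 ± 0.39). Ccl24, an eosinophil attractant, rose by 3.298 ± 0.42. The 3 that fell, Cxcl12, Ccl25 and Cxcl14, were all low. Cxcl12, the ligand of CXCR4, was at 2.5, 12.2 and 7.09 CPM and then 4.07, 1.71 and 3.17 CPM, with overlap, and its call was lost without T0 replicate 2 (-0.66), T0 replicate 3 (-1.25), T6 replicate 2 (-0.996) or T6 replicate 3 (-1.29). Without T6 replicate 3 only 1 of the 3 was called.

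Receptors for cytokines and chemoattractants went both ways, with 26 of 46 tested members higher, 9 lower and a median of 1.36. The formyl peptide receptors Fpr1 and Fpr2, which sense bacterial and mitochondrial peptides, rose from 4.52, 4.8 and 1.28 to 328, 145 and 156 CPM and from 5.79, 5.56 and 2.38 to 382, 272 and 186 CPM. Ccrl2, an atypical receptor that binds chemerin, rose by 5.79 ± 0.38. Ccr2, the receptor for CCL2, fell from 52.4, 106 and 84.7 to 30.5, 23.5 and 28.3 CPM (-1.56 ± 0.34) and Cx3cr1, the fractalkine receptor, from 2.81, 4.88 and 3.17 to 1.13, 1.4 and 0.92 CPM (-1.66 ± 0.52). Cxcr4 fell most, as given above, and the decoy C5a receptor C5ar2 fell by 2.27. Csf1r, the receptor for the survival factor M-CSF, was at 2693, 2555 and 1975 CPM and then 1999, 1322 and 1619 CPM. Its fall of 0.55 passed the test (adjusted p 0.0228, edgeR) but not without each library, as given above, and the lowest T0 value lay under the highest T6 value. Il10ra was not called (542, 573 and 388 and 442, 500 and 320.2 CPM).

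Interferon-stimulated genes rose as a group. All 54 tested members rose, 52 of them over 2-fold, and all 54 also rose by library totals. Their median was 3.25, and 2.45 by library totals. Their summed level was 6213 to 9496 CPM in the T0 libraries and 87576 to 102743 CPM in the T6 libraries. Mx1, a GTPase that blocks influenza viruses, rose from 137, 182 and 89.9 to 3726, 2744 and 3082 CPM (4.55 ± 0.31, adjusted p 1.4e-10, edgeR). Irf7, which amplifies interferon production, rose from 463, 451 and 301 to 4176, 3187 and 3304 CPM (3.13 ± 0.26). Replicate 2 was the highest T0 library for Mx1 and Rsad2, and for Mx1, Rsad2 and Irf7 no T0 value reached a T6 value.

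Members that lie side by side in the genome also rose together. The 4 Ifit genes tested at chr19:34550694-34650009, which bind foreign RNA, rose by 3.08 to 5.56 on the log2 scale. The 4 guanylate-binding protein genes at chr3:142493978-142638008, which attack vacuoles that hold pathogens, rose by 4.32 to 6.78. Gbp5 led them, from 23.8, 30.5 and 12.5 to 2933, 1428 and 2940 CPM (6.78 ± 0.504). Ifit2 went from 126, 214 and 91.1 to 7830, 3427 and 9126 CPM (5.56 ± 0.56), with T6 replicate 2 the lowest of its group. Ifi205, a DNA-binding protein of the PYHIN family, rose from 4.25, 4.88 and 2.17 to 1313, 589 and 1273 CPM. It has near-identical neighbours on chromosome 1, and with unique alignment its level is uncertain.

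Enzymes around nitric oxide moved both ways. Beside Nos2, Ass1, which takes part in rebuilding arginine from citrulline, rose from 1.34, 1.47 and 2.05 to 18.9, 12.6 and 15.9 CPM (3.27 ± 0.31). The cofactor of nitric oxide synthase is tetrahydrobiopterin. Gch1, the first enzyme of its synthesis, rose from 24.4, 24.9 and 23.6 to 228, 303 and 217 CPM (3.36 ± 0.21), while the later enzymes Pts and Spr fell by 1.06 and 1.66, Spr from 28.1, 24.7 and 25.4 to 6.54, 10.9 and 7.46 CPM. Arg1, the arginase of alternatively activated macrophages, stayed low at 0.205, 0.0358 and 0.0476 CPM and 0.734, 1.59 and 1.07 CPM although its rise was called (3.51 ± 0.64). Odc1, the first enzyme of polyamine synthesis, rose by 1.22 ± 0.23, a call lost by library totals (0.42). In all 12 of 20 tested genes of this group rose and 4 fell. Eicosanoid enzymes were divided likewise, with 9 of 21 higher, 10 lower and a median of -0.67. While Ptgs2 and the prostaglandin E synthase Ptges rose (7.55 ± 0.25 for Ptges), the constitutive cyclooxygenase Ptgs1 fell from 75.2, 66.1 and 48.4 to 17, 18.9 and 12.8 CPM (-1.96 ± 0.24). The prostaglandin D synthase Hpgds fell from 185, 172 and 175 to 89.6, 75.9 and 63.8 CPM, the 5-lipoxygenase-activating protein Alox5ap by 0.82, and Hpgd, which inactivates prostaglandins, from 10.4, 17.6 and 10.7 to 2.6, 1.65 and 1.43 CPM.

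Acute-phase and antimicrobial genes rose in 15 of 21 tested cases and fell in none, with a median of 3.83. The 6 others did not pass the test. C3, the central complement protein, rose from 103, 117 and 53.9 to 2662, 929.5 and 1570 CPM (4.24 ± 0.42), and Cfb, factor B of the alternative pathway, from 1.27, 0.896 and 0.666 to 62, 109 and 39.2 CPM (6.23 ± 0.44). Lcn2, which starves bacteria of iron by binding their siderophores, rose from 31.3, 36 and 17.9 to 579, 328 and 307 CPM (3.83 ± 0.36). Lyz2, lysozyme, was at 13357, 13357 and 9957 CPM and 17613, 9563 and 11359 CPM and was not called. Slc40a1 (ferroportin), the exporter of iron, fell from 315, 252 and 243 to 9.61, 10.8 and 14.4 CPM (-4.54 ± 0.22, adjusted p 1.99e-12, edgeR). Tfrc, the transferrin receptor, fell from 409, 283 and 275 to 106, 103 and 100.1 CPM (-1.65 ± 0.29), and Steap3, the endosomal ferrireductase, by 2.42. Slc39a14 (ZIP14), a metal importer, rose from 9.97, 12.5 and 10.1 to 150.3, 136 and 134 CPM (3.69 ± 0.199), and Mt2, a metallothionein, from 21.6, 24 and 24.9 to 351, 934 and 373 CPM. Of 19 iron and metal genes 9 rose and 7 fell; the median of 0.24 turned to -0.56 by library totals. Hmox1, haem oxygenase, was called higher (0.56 ± 0.21) by TMM, but its change by library totals was -0.25, and the call was lost without T0 replicate 2 (0.404), T6 replicate 2 (0.501) or T6 replicate 3 (0.54).

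Glucose uptake and glycolysis genes rose in 22 of 33 tested cases and fell in 6, with a median of 0.99 (0.18 by library totals). Slc2a1 (GLUT1) rose from 15.8, 21 and 18 to 330, 307 and 244 CPM (4.005 ± 0.22) and Slc2a6, a lysosomal hexose transporter, from 62.1, 61 and 38.7 to 1768, 1352 and 1234 CPM, whereas Slc2a3 (GLUT3) fell by 1.22. Hk2 and Hk3, hexokinases, rose by 2.46 ± 0.13 and 2.16 ± 0.19. The bifunctional regulators of glycolysis diverged: Pfkfb3 rose from 55.6, 42 and 36.6 to 1356, 1206 and 1255 CPM (4.83 ± 0.26) and Pfkfb4 fell from 87.7, 85.7 and 67 to 19, 25.7 and 14.8 CPM (-2.02 ± 0.18). Hif1a, the oxygen-regulated factor that drives many of these genes, rose from 24.1, 28.6 and 25.5 to 151, 71.1 and 151 CPM, lowest in T6 replicate 2. Pkm was called higher (0.53 ± 0.18), but by library totals its change was -0.27, and the call was lost without T6 replicate 2 (0.34).

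Genes of the TCA cycle list fell in about the share of all genes. Idh1, a cytosolic isocitrate dehydrogenase, fell from 208, 202 and 197 to 43.4, 38.4 and 46.9 CPM (-2.23 ± 0.14), and Fh1, fumarase, from 46.4, 56.9 and 41.3 to 15.2, 13.8 and 17.6 CPM (-1.63 ± 0.15), while the succinate dehydrogenase subunit Sdha was at 161, 174 and 181 and 175, 164 and 175 CPM. Cs, citrate synthase, was called higher by 0.52 on the TMM scale but had a change of -0.28 by library totals. Of 20 tested TCA cycle genes 2 rose and 7 fell, against 27.3% and 31.9% of all genes, and 1 rose without T0 replicate 1, T0 replicate 3, T6 replicate 1 or T6 replicate 3. Of 24 nuclear genes of oxidative phosphorylation 7 rose and 2 fell, and the median of 0.09 turned to -0.71 by library totals. Ppargc1b, a coactivator of mitochondrial genes, rose from 0.959, 1.04 and 0.952 to 5.17, 4.51 and 6.64 CPM. Atp5b rose by 0.92 ± 0.21, a call lost by library totals (0.109). The 2 that fell, Ndufb8 and Ndufv1 of complex I, were both lost without T0 replicate 1. Pentose phosphate and nucleotide synthesis genes fell in 14 of 25 tested cases and rose in 4 (median -0.74). Shpk, a sedoheptulose kinase known to restrain the LPS response, fell from 7.02, 6.53 and 5.86 to 0.734, 0.889 and 1.18 CPM (-2.804 ± 0.205). Upp1, uridine phosphorylase, rose from 0.582, 1.04 and 0.881 to 172, 116 and 124 CPM (7.36 ± 0.74), and Nampt, of NAD salvage, from 86.1, 94.2 and 88.1 to 984, 696 and 887 CPM.

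In lipid metabolism the cholesterol 25-hydroxylase Ch25h, whose product is antiviral, rose from 0.479, 0.61 and 0.19 to 78.5, 87.2 and 72 CPM (7.599 ± 0.54). Dhcr7, a last step of cholesterol synthesis, fell from 14, 18.7 and 13.2 to 4.84, 3.43 and 3.63 CPM. The desaturase Scd2 fell by 2.21, and Fasn and Scd1 were not called. Of 31 tested genes of sterol and fatty acid synthesis 14 rose and 5 fell, with a median of 0.59 that turned to -0.197 by library totals, and 3 fell without T0 replicate 1, T0 replicate 2 or T6 replicate 3. Of 23 genes of lipid handling 5 rose and 5 fell, against 27.3% and 31.9% of all genes, and 8 rose without T6 replicate 2. Rxra, the partner of LXR and PPAR receptors, fell from 117, 121 and 89.5 to 13.8, 12.3 and 10.1 CPM (-3.17 ± 0.15) and Pparg from 28.4, 32 and 31.5 to 8.71, 11.9 and 10.1 CPM (-1.59 ± 0.17), while Nr1h3 (LXR alpha) rose from 56.5, 38.5 and 34.4 to 93.7, 178 and 82.2 CPM (1.45 ± 0.25). Acsl1, which activates fatty acids, rose by 4.29 ± 0.25. Abca1, Apoe, Plin2 and Lpl had overlapping values and were not called.

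Presentation of antigen on MHC class I rose as a whole: 23 of 23 tested genes were higher, 16 over 2-fold, with a median of 2.001. By library totals 17 were called higher and 0 lower. Nlrc5, the transactivator of class I genes, rose from 85.8, 98.8 and 77 to 910.5, 901 and 886 CPM (3.37 ± 0.17), Tap1, a peptide transporter, by 3.21 ± 0.19, and the class I heavy chain H2-K1 from 2940, 2356 and 2489 to 4622, 5961 and 4239 CPM (0.93 ± 0.196). The call of H2-K1 was lost by library totals (0.129). Class I heavy chain genes are close copies, so their separate levels are uncertain. MHC class II genes gave no such pattern, with 3 of 16 higher and 4 lower. H2-Ab1 was at 172, 133 and 88.6 CPM and 149, 201 and 102 CPM, and neither it nor Cd74 nor the transactivator Ciita was called. March1, a ubiquitin ligase that removes class II from the surface, rose from 31.5, 30.9 and 27.2 to 296, 239.5 and 224 CPM (3.08 ± 0.23). Subunits of the RFX complex, which binds class II promoters, diverged, Rfx5 rising by 1.33 and Rfxank falling by 1.59.

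Costimulation and adhesion genes rose in 21 of 26 cases and fell in 2, with a median of 2.84. Cd40, through which T cells license macrophages, rose from 18.3, 18 and 9 to 2299, 2189 and 2014 CPM (7.17 ± 0.36), Cd86 from 25.9, 32.2 and 20.4 to 254, 146 and 169 CPM (2.86 ± 0.32), and Cd274 (PD-L1), an inhibitory ligand, from 163, 142 and 145 to 2434, 2506 and 2701 CPM (4.08 ± 0.24). Icam1, an adhesion ligand of integrins, rose by 4.04 ± 0.22, Cd69 by 6.74 ± 0.397 and Slamf1 by 6.92 ± 0.44. The inhibitory receptor Vsir (VISTA) fell from 473, 516 and 364 to 163, 118 and 115 CPM (-1.77 ± 0.19), and Havcr2 (TIM-3) by 1.09.

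Genes of inflammasomes and cell death rose in 21 of 31 tested cases and fell in 5, with a median of 1.59. Casp4 (caspase-11), which senses LPS in the cytosol, rose from 41.1, 34.3 and 35.1 to 492, 401 and 441 CPM (3.595 ± 0.17), and the inflammasome sensor Nlrp3 from 27.1, 35.2 and 22.8 to 548, 570.1 and 643 CPM. Nlrp1b, another sensor, fell from 139, 141 and 149 to 7.47, 9.08 and 4.8 CPM (-4.33 ± 0.34). Cflar (c-FLIP), which blocks caspase-8, rose from 68.8, 65.7 and 55.2 to 1067, 1024 and 1155 CPM (4.097 ± 0.16, adjusted p 1.63e-13, edgeR). The pro-apoptotic BH3-only genes Bbc3 (PUMA) and Pmaip1 (NOXA) fell by 1.49 and 0.602, Bbc3 from 51.1, 53.5 and 52.5 to 19.1, 22.5 and 14.5 CPM, as did Bmf above, and Bcl2 was not called. The survival gene Bcl2a1a had 0 reads in all 3 T0 libraries and stood at 2.8, 3.68 and 2.1 CPM at T6. It is 1 of several near-identical copies, so its level is uncertain and no fold is given.

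Receptors of uptake were rearranged within families. Among Fc receptors, Fcgr4, which activates, rose from 176, 159.5 and 97.2 to 1363, 972 and 940.2 CPM (2.92 ± 0.28) and Fcgr2b, which inhibits, from 219, 221 and 134 to 1757, 1720 and 1015 CPM (2.97 ± 0.25). Of the receptors for dying cells, Axl rose from 44.5, 62.4 and 59.6 to 216, 103 and 249 CPM (1.77 ± 0.39), its relative Mertk was not called, and their ligand Gas6 fell from 603, 586 and 465 to 197, 201 and 173 CPM (-1.53 ± 0.15). Trem2, a lipid receptor, fell by 0.72, and the inhibitory receptor Cd300a from 297, 254 and 237 to 63.9, 57.1 and 72 CPM. Of 30 phagocytic, Fc and complement genes 14 rose and 5 fell, and the median of 0.35 turned to -0.45 by library totals. Msr1, scavenger receptor A, rose from 101, 93 and 74.8 to 1621, 1775 and 1446 CPM (4.17 ± 0.17) and Clec4e (Mincle), which senses mycobacterial glycolipid, from 19.6, 17.1 and 18.7 to 1739, 1295 and 1448 CPM (6.34 ± 0.25). Clec7a (dectin-1), the beta-glucan receptor, fell from 129, 107 and 104 to 64.4, 44.8 and 54.4 CPM (-1.06 ± 0.17) and Clec10a from 56.7, 67.8 and 31.7 to 9.87, 13.9 and 5.57 CPM, and the mannose receptor Mrc1 was not called (234, 255 and 175 and 243, 176 and 170.1 CPM). In this group 10 of 25 rose and 4 fell (2 without T0 replicate 1), with a median of 0.298 (-0.51 by library totals).

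Receptors for extracellular nucleotides, adenosine and lipids included some of the widest shifts, with 14 of 29 higher and 11 lower. The median of 0.57 was -0.24 by library totals. Adora2a, the adenosine receptor that restrains inflammation, rose from 0.993, 1.22 and 0.976 to 202, 183 and 128 CPM (7.33 ± 0.304), and Adora3 from 1.81, 1.33 and 1.5 to 30.9, 22.8 and 15.4 CPM. Gpr84, a receptor for medium-chain fatty acids, rose by 6.12 ± 0.31. Lpar6, a lysophosphatidic acid receptor, fell from 186, 155 and 161 to 5.6, 8.38 and 7.77 CPM (-4.54 ± 0.32), and Cnr2, the cannabinoid receptor of immune cells, from 16.1, 15.3 and 16.4 to 0.634, 0.825 and 0.716 CPM (-4.47 ± 0.34). P2rx4, an ATP-gated channel, was not called.

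Transcription factors of the myeloid lineage split within the C/EBP family. Cebpa, a factor of myeloid commitment, fell from 178, 135 and 152 to 5.7, 5.01 and 5.37 CPM (-4.85 ± 0.19, adjusted p 1.45e-13, edgeR), while Cebpb, an activator of inflammatory genes, rose from 82.6, 67.9 and 67.7 to 322, 571 and 246 CPM (2.38 ± 0.34). Spi1 (PU.1), the master regulator of macrophages, rose from 323, 262 and 264 to 1364, 1083 and 1043 CPM (2.04 ± 0.202), and Irf8, its partner, by 1.08 ± 0.13. Klf2 fell from 61.2, 53.9 and 43.7 to 14.5, 25.2 and 12.6 CPM, Klf4 was not called, and Klf7 rose by 3.01 ± 0.29. Of 41 tested lineage factors 19 rose and 10 fell, and the median of 0.34 turned to -0.47 by library totals. Among 39 inducible factors 21 rose and 6 fell (median 0.88, 0.07 by library totals). Batf and Batf2, which pair with JUN proteins, rose from 12.7, 13.4 and 10.3 to 249.6, 309 and 169 CPM and from 11.5, 8.21 and 6.67 to 313, 224 and 279.7 CPM. Fos, an immediate-early gene, fell from 291, 221 and 241 to 94.3, 96.3 and 84.8 CPM (-1.45 ± 0.25) and Fosb by 1.89, and Jun and Egr1 were not called. Atf3, a stress-inducible repressor of TLR4 responses, rose by 1.196 ± 0.19.

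Of 47 tested enzymes that modify histones and DNA 16 rose and 16 fell, shares near those of all genes (27.3% and 31.9%), and by library totals 7 rose and 27 fell. The median was 0.15 (-0.65 by library totals). Setdb2, a methyltransferase induced by interferon, rose from 9.28, 11.6 and 9.69 to 120.5, 99.1 and 140.5 CPM (3.56 ± 0.23), and Tet2, which oxidises methylcytosine, from 35.6, 40.2 and 39.1 to 198, 254 and 182 CPM (2.46 ± 0.24). Dnmt3a, a DNA methyltransferase, fell (-0.79 ± 0.14). The class II deacetylases parted, Hdac9 rising from 2.02, 3.23 and 2.67 to 28.1, 21.3 and 23.7 CPM and Hdac5 falling from 97.8, 96.2 and 91.1 to 28.6, 20.9 and 19 CPM. Hdac11, which represses Il10, fell from 2.19, 1.61 and 1.52 to 0.167, 0.0635 and 0.102 CPM (-3.84 ± 0.51). Kdm6b, an H3K27 demethylase induced early by LPS, was not called (29.4, 30.1 and 23.6 and 19.1, 29.3 and 31.8 CPM).

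Cell division genes were low and mostly fell. Of 33 tested DNA replication genes 20 fell and 4 rose, with a median of -0.86, and of 30 mitosis genes 23 fell and 2 rose, with a median of -1.23. The replicative helicase subunit Mcm7, whose promoter holds an E2F motif, fell from 8.46, 8.14 and 6.71 to 1.4, 1.14 and 1.64 CPM (-2.47 ± 0.23), and the factor E2f2 from 10.6, 14 and 12.9 to 1.43, 1.14 and 1.38 CPM (-3.23 ± 0.31). Kif23, a kinesin of cytokinesis, fell from 8.39, 12.8 and 10.8 to 1.57, 0.889 and 1.89 CPM (-2.86 ± 0.28), and Cenpa, the centromeric histone, also fell (-2.801 ± 0.25). Exceptions were Ccne1, cyclin E1 (2.81, 4.66 and 2.98 to 10.1, 13.1 and 11.1 CPM), and Tpx2, a spindle factor (8.87, 15.2 and 12.3 to 90.6, 78.3 and 91.8 CPM). Mki67 and Pcna were called higher by 0.497 and 0.56 on the TMM scale but changed by -0.32 and -0.25 by library totals. The call of Mki67 was lost without T0 replicate 1 (0.31), T6 replicate 1 (0.44) or T6 replicate 3 (0.52), so that 1 mitosis gene was then called higher. In bulk RNA, fewer cells of a type and less RNA per cell cannot be told apart. G1 regulators gave 13 of 30 higher and 9 lower (median 0.44, -0.36 by library totals). Ccnd2, cyclin D2, rose from 3.63, 9.82 and 6.09 to 342, 280.5 and 344 CPM (5.63 ± 0.33), as did the cyclin-dependent kinase inhibitor Cdkn1a (p21), from 576, 534 and 486 to 1543, 1986 and 1695 CPM (1.71 ± 0.17).

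DNA repair genes had the lowest median of the lists, -1.56: 22 of 32 tested fell, 18 of them over 2-fold, and 4 rose. Chek2, the checkpoint kinase of double-strand breaks, fell from 8.12, 8.46 and 8.93 to 0.567, 0.571 and 0.664 CPM (-3.82 ± 0.25, adjusted p 8.49e-11, edgeR). Xpc, which detects lesions for nucleotide excision repair, fell from 25.1, 23.3 and 23.8 to 4.9, 4.82 and 4.96 CPM (-2.297 ± 0.15). Brca1, of homologous recombination, fell (-1.51 ± 0.29). The values of these 3 genes did not overlap between the groups. Against this trend Fanca, of the Fanconi anaemia pathway, rose from 1.64, 2.83 and 2.43 to 10.7, 9.84 and 11.5 CPM (2.21 ± 0.24). The kinase Atm rose by 1.76 ± 0.57 with T6 values from 3.43 CPM in replicate 2 to 15.2 CPM in replicate 3. The call of Atm was lost without T6 replicate 3 (1.25) or by library totals (0.961).

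Stress responses did not move as blocks. Of 28 redox genes 12 rose and 10 fell, against 27.3% and 31.9% of all genes. Sod2, the mitochondrial superoxide dismutase, rose from 95.1, 83.4 and 70.6 to 2197, 2986 and 1730 CPM (4.79 ± 0.22), Cybb, the core of the phagocyte oxidase, from 384, 446 and 310 to 3033, 1769 and 2960 CPM, and the cystine importer Slc7a11 from 4.28, 3.48 and 3.95 to 25.6, 28.1 and 23.5 CPM. Nqo1, a classic NRF2 target, fell from 6.54, 7.74 and 7.97 to 4.1, 3.24 and 3.63 CPM (-1.01 ± 0.17), and Cat, catalase, from 233, 234 and 244 to 106, 84.6 and 126 CPM (-1.17 ± 0.16). Integrated stress response genes fell in 13 of 27 cases and rose in 7 (median -0.41). Ddit3 (CHOP) fell from 189.9, 133 and 182 to 51.2, 90.5 and 63.5 CPM and Trib3 by 1.398, while Wars, the tryptophanyl-tRNA synthetase and an interferon target, rose by 2.24 ± 0.15. In the unfolded protein response 12 of 22 rose and 4 fell, with a median of 0.38 (-0.43 by library totals). The chaperone Hspa5 (BiP) rose from 360.5, 485 and 412 to 1721, 1063 and 1576 CPM (1.79 ± 0.19) and the sensor Ern1 (IRE1) fell by 1.22. Xbp1 rose by 0.54 on the TMM scale and changed by -0.27 by library totals. Ribosome biogenesis genes fell in 15 of 29 cases and rose in 3 (median -0.36), and Polr1b, a subunit of RNA polymerase I, fell from 11, 11.5 and 13.9 to 2.1, 2.79 and 3.48 CPM (-2.13 ± 0.23). Of 32 cytosolic ribosomal protein genes 1 rose, 5 fell and 26 were not called. The 1 that rose, Rpl27 (0.76, and -0.054 by library totals), was not called without T6 replicate 1 (0.59). Without T6 replicate 2 the count that fell was 13, and without any 1 of the other 5 libraries it was 3. They have many processed pseudogenes, so counts of uniquely aligned reads understate some of them.

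Of 32 tested lysosomal genes 9 rose, close to the 27.3% of all genes. A further 5 fell, against 31.9% of all genes, and 18 were not called. The median was 0.18 (-0.63 by library totals). Ctsc, a cathepsin that activates serine proteases, rose most, from 238, 273 and 149 to 3457, 1960 and 2449 CPM (3.58 ± 0.28), whereas Ctsd and Lamp1 were not called. Matrix, protease and coagulation genes rose in 16 of 29 cases and fell in 1 (0 without T0 replicate 1). Mmp13, a collagenase, rose from 21.8, 24 and 20.8 to 3119, 3389 and 2204 CPM (7.03 ± 0.37), and Mmp25, a membrane-bound matrix protease, from 0.445, 0.215 and 0.19 to 82, 17.3 and 51.4 CPM. Mmp9 was not called. Clock genes fell in 9 of 15 tested cases and rose in 2. Dbp, an output of the clock, fell from 92.6, 65.6 and 59.1 to 2.63, 5.52 and 1.74 CPM (-4.49 ± 0.35), Per3 from 33.4, 28.3 and 26.1 to 3.17, 4.63 and 2.61 CPM (-3.09 ± 0.25), and the repressor Nr1d1 (REV-ERB alpha) by 1.13. Arntl (BMAL1) was not called. The 2 that rose, Cry1 and Csnk1d, changed by -0.02 and -0.24 by library totals. The labels do not give the hour of collection, so for these genes time of day cannot be told apart from LPS either. Stk40, the gene targeted in the other genotype, rose in WT cells from 52.5, 52.2 and 39.7 to 322, 335 and 281 CPM (2.700 ± 0.16), and Trib1, a related pseudokinase, from 40.7, 37 and 24 to 82.2, 129 and 61.4 CPM (1.42 ± 0.23). Rfwd2, which encodes the ubiquitin ligase COP1, rose by 0.81 ± 0.16 (0.01 by library totals).

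Later LPS groups were set directly against T6 to ask where the T6 level lay in the course. These contrasts share the T6 libraries with the T6 against T0 contrast, so the 2 are not independent. At T32 4337 genes were higher than at T6 (27.5%) and 3629 lower (23%). At T16, with 2 libraries, 3587 were higher (22.7%) and 3080 lower (19.5%). By library totals these splits were 7346 higher and 2054 lower at T32, and 5516 and 1824 at T16. Of the 2087 genes over 2-fold higher at T6, 1602 were lower at T32 than at T6, 45 were higher and 440 were not called. Of the 1910 genes over 2-fold lower at T6, 1446 were higher at T32 than at T6, 34 were lower and 430 were not called.

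The 6 risen genes with the largest decline from T6 to T32 were Steap4, Shisa3, Edn1, Mt2, Mmp13 and Nudt17. Edn1 was at 242, 138 and 176 CPM at T6, at 1.74 and 3.49 CPM at T16 and at 0.859, 1.14 and 2.82 CPM at T32 (T32 against T6 -6.89, adjusted p 6.21e-10, edgeR). Mmp13 stood at 77.9 and 112 CPM at T16 and 22.1, 19.2 and 49.8 CPM at T32. Mt2 stood at 11.2 and 14.8 CPM and 7.1, 5.75 and 4.12 CPM, under all of its T0 values of 21.6, 24 and 24.9 CPM. Il6 was at 4.74 and 1.76 CPM at T16 and 0.836, 0.962 and 1.13 CPM at T32, and Cd40 at 70.6 and 132 CPM and 44.9, 45.1 and 75.4 CPM. Other genes were not called between T6 and T32. Ccl5 was at 6534 and 17860 CPM at T16, 1 of them above all T6 values, and at 5592, 6709 and 9349 CPM at T32, a T32 against T6 change of 0.05 that was not called (adjusted p 0.906, edgeR), and Cfb at 80.7 and 159 and 64.8, 73.9 and 87.6 CPM was not called either (0.11). A few went on rising. Siglece, an inhibitory lectin, went from 48.6, 57.3 and 23.8 CPM at T6 to 136, 219.5 and 208 CPM at T32 (2.12), and Fpr1 changed by 1.12 between T6 and T32. Marco, a scavenger receptor, and Ly6i, Plac8, Klra2 and Slc13a3 also stood higher at T32, by 1.66 to 2.57.

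Among genes that had fallen, Arhgap19 was at 78.5 and 59.1 CPM at T16 and 156, 166 and 139.7 CPM at T32 (T32 against T6 5.42, adjusted p 7.06e-14, edgeR), against 297, 264 and 221 CPM at T0. Chek2 was at 9.66 and 7.96 CPM and 9.91, 10.8 and 7.65 CPM, and Arrb1, a beta-arrestin, at 156 and 134 CPM and 170.2, 193 and 176 CPM against 9.37, 8.7 and 8.74 CPM at T6. Cebpa was higher at T32 than at T6 by 2.799, at 44.6, 35.5 and 32.3 CPM. Txnip was close to its T6 values, at 323 and 264 CPM and 275, 322 and 295 CPM (0.24, not called). Others fell further after T6. Gprc5c, an orphan receptor, went from 9.21, 8.82 and 14 CPM at T6 to 1.11, 1.52 and 0.908 CPM at T32 (-3.16), Trem2 from 781, 892 and 699 to 214, 151 and 174 CPM (-2.14), and Slco2b1 and Hpgd fell by a further 4.29 and 4.71. By list, 47 of 54 interferon-stimulated genes were lower at T32 than at T6 and 0 higher, whereas 21 of 32 DNA repair genes were higher and 1 lower. Mitosis genes gave 11 lower and 5 higher.

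**Figure D4:**
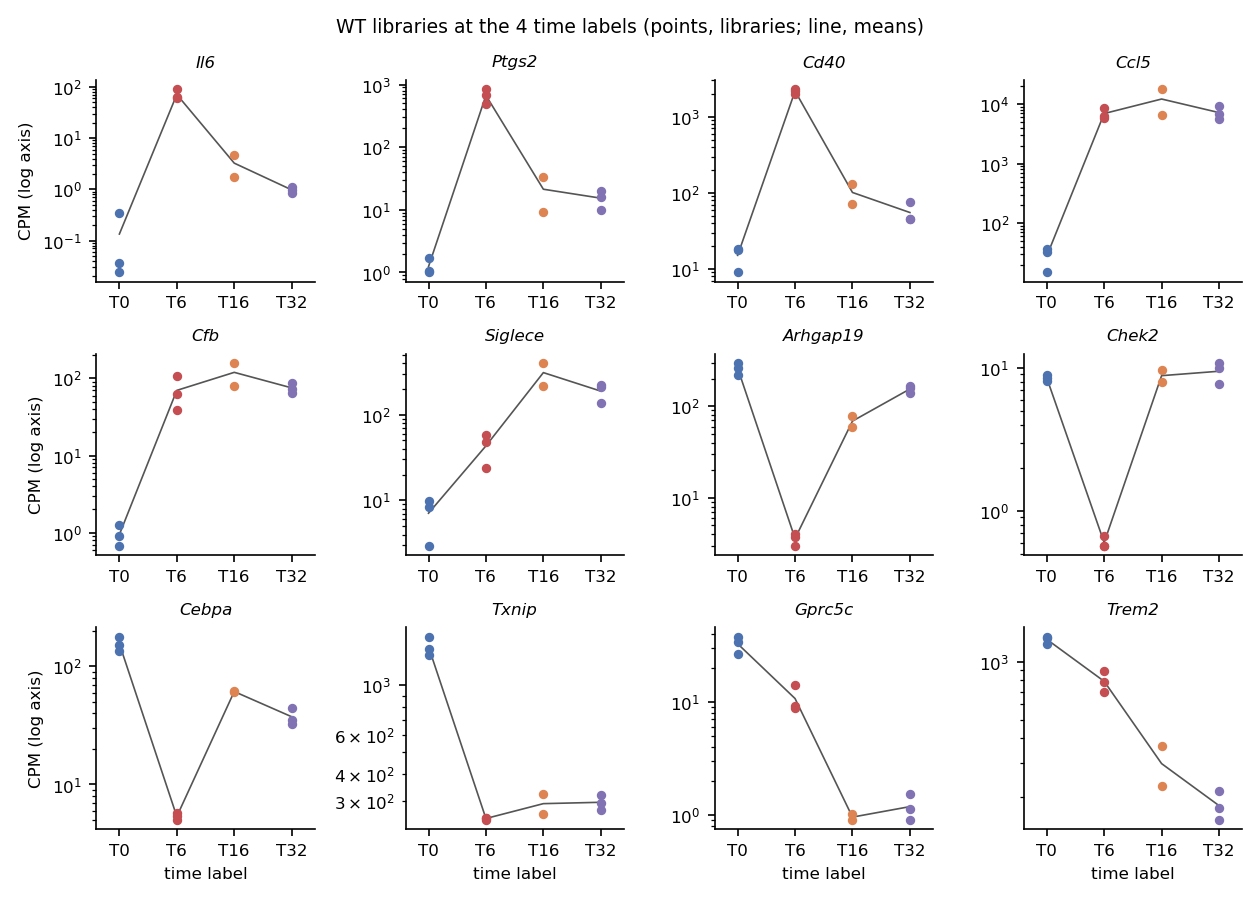
CPM of 12 genes in WT libraries at T0, T6, T16 and T32 (evenly spaced labels, log axes), with points for libraries and a line through group means. Il6, Ptgs2 and Cd40 are highest at T6, Ccl5 and Cfb at T32 overlap their T6 values, Siglece is higher at T16 and T32 than at T6, Arhgap19, Chek2 and Cebpa are lowest at T6, and Txnip, Gprc5c and Trem2 are below their T0 values at every later label.

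The same contrast in the 6 KO-labelled libraries shares no library with the WT contrast. All 6 carried Xist and at most 1 Y-linked count, whereas WT T0 replicate 2 and WT T6 replicate 1 carried Y-linked counts. Sex was therefore not balanced between the genotypes, and its part was not tested. Stk40 itself was not lower in the KO-labelled libraries, at 51.7, 61.3 and 56.5 CPM at T0 and 388, 354 and 385 CPM at T6, against 52.5, 52.2 and 39.7 and 322, 335 and 281 CPM in WT, so the counts do not bear out the label, which is used here as given. The contrast called 4142 genes higher (26.2%) and 5111 lower (32.4%), or 2007 and 9492 by library totals. Of the 2087 genes over 2-fold higher in WT, 2042 were also called higher there (97.8%) and 0 lower; of the 1910 over 2-fold lower, 1846 were called lower (96.6%) and 0 higher. The difference between the responses, tested as an interaction, was called for 16 genes, 0.101% of those tested, 1 with a higher and 15 with a lower log2 response in the KO-labelled libraries. DESeq2 called 15 and 68, and 803 genes had an unadjusted p under 0.05 in edgeR. Leaving out 1 library moved the 15 to between 1 (without WT T0 replicate 3) and 18 (without KO-labelled T0 replicate 2), and it was 3 without KO-labelled T0 replicate 3 or T6 replicate 1, 5 to 8 without WT T0 replicate 1, WT T6 replicates 1 or 2, or KO-labelled T0 replicate 1 or T6 replicates 2 or 3. The log2 rise of Slfn1, a Schlafen gene of the interferon response, was smaller in the KO-labelled libraries: 189, 115 and 166 CPM at T0 and 468, 376 and 569.6 CPM at T6, against 24, 19 and 17.5 and 372, 253 and 316 CPM in WT. The KO-labelled values of Slfn1 lay above all WT values at T0 and at T6, and by the larger ratio at T0. For Rsad2 the KO-labelled libraries stood at 1028, 742 and 895 CPM at T0, above all WT values at T0, and at 19058, 16830 and 19914 CPM at T6. The difference of its responses, -1.38, was not called (adjusted p 0.571, edgeR). All 54 interferon-stimulated genes rose in both genotypes, with a median of 2.22 in the KO-labelled libraries and 3.25 in WT, and 4 of the 54 were among the 16 called differences. Mitosis genes gave 13 falls in the KO-labelled libraries (median -0.79) against 23 in WT, a difference in counts that was not tested.

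**Figure D5:**
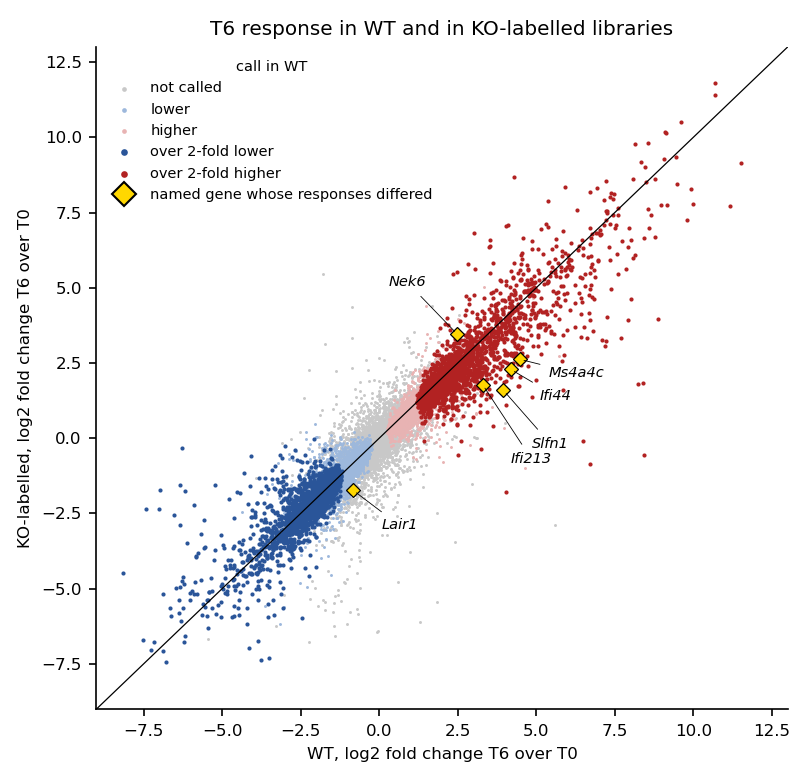
For each gene tested, the log2 fold change at T6 against T0 in WT (x axis) and in the KO-labelled libraries (y axis), coloured by its call in WT, with a line of equal change. Diamonds mark 6 of the 16 genes whose responses differed in the interaction test: Nek6 lies above the line, and Slfn1, Ms4a4c, Ifi44, Ifi213 and Lair1 lie below it.

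Markers of other cells that a bone marrow culture could hold summed to less than those of macrophages, a sum that was mostly Lyz2 at T0. Dendritic cell markers summed to 10.4 to 17.7 CPM at T0 and 17.4 to 23.4 CPM at T6, with 3 of 9 tested higher and 2 lower. Neutrophil markers summed to 453 to 778 CPM at T0 and 792 to 1313 CPM at T6; Csf3r, the G-CSF receptor, rose, and the 6 that fell were Ly6g, Retnlg, Ltf, Elane, Mpo and Prtn3. T, B and NK cell markers summed to 27.3 to 42.7 CPM at T0 and 14.7 to 22.5 CPM at T6, with Cd3e, Cd3g, Cd3d, Ncr1 and Klrb1c too low to test, and erythroid and megakaryocyte markers to 27.2 to 41 CPM at T0 and 15.1 to 32.3 CPM at T6. Mast cell and basophil markers summed to 6.2 to 7.43 CPM at T0 and 127 to 184 CPM at T6, while Cpa3, Ms4a2 and Fcer1a were too low to test. The rise in that sum was nearly all Hdc, histidine decarboxylase, which went from 2.26, 3.3 and 1.95 to 182, 169 and 124 CPM and was chosen after its values were seen. Of 10 stromal and endothelial markers 2 rose, Kdr (VEGF receptor 2), from 4.59, 4.09 and 6.28 to 61.7, 42.3 and 69.8 CPM, and Cdh5, and the sum was 44.6 to 214 CPM at T0 and 93.2 to 289.6 CPM at T6. Eosinophil markers had 2 of 5 tested, with 1 higher. The part of these cells in the results above was not tested.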

How the data were processed

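RNA of bone marrow-derived macrophages was measured by poly(A) RNA-seq (unstranded, single-end 50-base reads, per the labels' protocols). Reads were aligned with GSNAP to GRCm38, per the submitters' processing notes (versions, gene annotation and counter: not given in the sources used here). Deposited counts are reads that align uniquely to a gene model, per the file headers, so genes with near-identical copies or overlapping neighbours are uncertain. Deposited RPKM values adjusted by the authors' size factors were checked but not tested. The counts of all 23 libraries (8 groups; 52636 genes) were fitted with edgeR 4.0.16 in R 4.3.3, with TMM scaling, filterByExpr and robust quasi-likelihood, 1 mean per group; 15782 genes passed the filter. Genes were called at a Benjamini-Hochberg adjusted p of 0.05 over all genes tested, and over 2-fold by glmTreat. CPM are TMM-scaled counts at a common library size. The common coefficient of variation was 0.217. On simulated counts the fit recovered 71% of 2-fold and 96% of 4-fold changes in WT T6 against T0 (15093 genes), with 3 false calls among 14893 unchanged genes. The changes were set on few, well-counted genes, balanced up and down, with the WT T0 profile in all groups. The simulation held no broad change in composition like that between T0 and T6, so it cannot show false calls that come from scaling.

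The 42 gene lists, the 8 marker lists and the genes named were chosen with earlier results of these data known. Named genes are the 15 largest log2 changes each way (mean of at least 5 CPM, no overlap), the 10 largest gains and losses of CPM, the leading and most changed members of each list, 6 genes each way for later change and the 6 with the clearest difference between genotypes; members outside this rule were chosen after their values were seen. Alternatives were DESeq2 1.42.0, other scalings and filters, fewer libraries and each replicate left out. Symbols were matched to GENCODE M21. Some genes are not reported here.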

Additional observations from a re-analysis of the deposited data

Results flagged for a closer look

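The T6 response differed between the KO-labelled and the WT libraries in the interaction test for genes that include interferon-stimulated ones. On the log2 scale the response of the KO-labelled libraries minus that of WT was -2.37 for Slfn1, -1.86 for Ms4a4c, -1.51 for Ifi213, -1.91 for Ifi44 and -0.90 for Lair1, and it was 0.96 for Nek6. These 6 were named as the clearest of the 16 differences called by edgeR. For Slfn1 the KO-labelled libraries already stood above WT at T0, as given above, so its smaller log2 response is not a lower T6 level. Levels by genotype are not given here for the other genes named. For them a different T0 level and a different T6 level are therefore not told apart.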

How the results depend on the processing

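Counts of genes called at T6 against T0 in WT stayed within 1.5 times under RLE scaling, other filters, the 6 libraries alone, the 11 WT libraries, a term for Y-linked counts and each library left out. The exceptions were scaling by library totals, with 2212 higher, 9240 lower, 1186 over 2-fold higher and 4992 over 2-fold lower, and DESeq2, with 1181 over 2-fold lower. By totals T16 against T6 gave 5516 and 1824, T32 against T6 gave 7346 and 2054, and the KO-labelled libraries gave 2007 and 9492.

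The difference between genotypes depended most on the setting: lower calls were 6 with RLE, 36 by totals and 68 with DESeq2 (higher 15), and with 1 library left out they ranged from 1 to 18, with 0 to 3 higher.

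Of 334 named genes, 328 kept their call, or the lack of one, with RLE. The number was 329 with DESeq2, 326 with the 6 libraries alone and 320 to 327 with a library left out. Direction was compared only for genes called in the main fit. A gene not called could change sign and still count as kept, as did Sdha with RLE (-0.004 to 0.082). By totals 282 did, and 14 lost and 27 gained a call. Among genes called by TMM, 11 changed sign: Hmox1 -0.25, Pkm -0.27, Cs -0.28, Myc -0.15, Pcna -0.25, Mki67 -0.32, Xbp1 -0.27, Noc4l -0.12, Rpl27 -0.054, Cry1 -0.022 and Csnk1d -0.245. Further genes that TMM did not call also changed sign, such as Cd74 (0.561 to -0.240) and Mmp9 (0.513 to -0.296). Rises that lost their call by totals included Ly96 (0.385), Rela (0.248), Odc1 (0.42), Atp5b (0.109), H2-K1 (0.129) and Atm (0.961). The calls gained, with Tlr4 (-0.596), Lyz2 (-0.74) and Mrc1 (-0.979) among them, were all lower. List medians that changed sign by totals were iron -0.56, oxidative phosphorylation -0.71, sterol synthesis -0.197, MHC class II -0.69, phagocytic genes -0.45, scavenger receptors -0.51, nucleotide and lipid receptors -0.24, lineage factors -0.47, chromatin enzymes -0.65, G1 regulators -0.36, unfolded protein response -0.43, lysosome -0.63 and COP1 ligase genes -0.61. Totals assume no change in composition and TMM no change in most genes; which holds was not tested. The median of MHC class II was -0.081 at a mean of at least 1 CPM and ranged from -0.119 to 0.23 with a library left out, that of TCA cycle genes from -0.18 to 0.004 and that of lipid handling from -0.19 to 0.17.

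GEO's labels carry no replicate numbers. With the numbers of the authors' sample table as a replicate block, chosen after seeing the data, 4267 genes were higher and 5077 lower (over 2-fold 2049 and 1934). Libraries of the same number did not share Y-linked transcripts, so the numbers were not taken as pairs. The cause of these changes was not tested.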
